A study of Mus musculus with 32 samples.

Results

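The 3'-terminal exon of a gene carries the end of the coding sequence, the stop codon and the 3' untranslated region (3' UTR), and it is described here for its N6-methyladenosine (m6A) sites in mouse hippocampal neurons. A site was counted as terminal when it lay, on the same strand, in the 3'-most exon of a gene of at least 2 exons, after the overlapping exons of all annotated transcripts of that gene had been merged. By this rule 7167 of the 18231 deposited site lines (39.3%) were terminal. Repeated lines for the same position reduced them to 7128 distinct positions in 3341 genes, of 18147 distinct positions in all, and the distinct positions are used throughout.

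Sites were mapped by in vitro DART-seq, in which purified RNA is incubated with APOBEC1-YTH, a fusion of a cytidine deaminase to the domain that binds m6A, so that cytidines next to m6A are converted to uridine (C2U). The neurons came from neonatal mice and grew on porous membranes, so that soma could be scraped from the upper face and neurites from the lower face. WT cells were of the C57BL/6 strain and Mettl3-/- (Mettl3 KO) cells of the Mettl3Flox/Flox strain, so that genotype and strain cannot be told apart. By the labels all cultures, WT included, received AAV encoding Cre-P2A-dTomato and were silenced for 16 h with tetrodotoxin (1 µM) and the NMDA receptor antagonist D-AP5 (50 µM). Soma and neurites were taken from untreated cultures and from cultures given 55 mM KCl for 2 h, which gave 8 groups of 2 RNA-seq libraries and 8 groups of 2 DART-seq libraries. By the study's methods the 2 replicates came from different litters, and KCl-treated and untreated cultures shared a litter.

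m6A is deposited on nascent RNA by a methyltransferase whose catalytic subunit is METTL3, mostly within the sequence DRACH, where D is A, G or T, R is A or G and H is A, C or T. The mark is known to be concentrated around stop codons and in long exons, and it is read in the cytoplasm by YTHDF proteins, which influence the decay, translation and transport of the RNA. The 3' UTR is also where many of the signals that send RNA into dendrites and axons are read, so terminal exons are where the mark and transport signals can share sequence.

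The sequences around 9 of the 10 terminal sites with the highest C2U fraction are given first, because they show the context in which editing went furthest. Each is the mm10 reference, 5' to 3' on the RNA's strand, over 21 bases, and capitals mark R, the methylated A and the edited C. All 9 were in 3' UTRs of protein-coding genes.
9330159F19Rik, chr10:29227772-29227792, plus strand: gctagtgttGACtttgaaatt
Kbtbd11, chr8:15032259-15032279, plus strand: taaatgattGACaagacacac
Rps15a, chr7:118105461-118105481, minus strand: agaaactctGACttaagacat
Psat1, chr19:15905972-15905992, minus strand: cttgggattGACtacagaaac
Cxcr4, chr1:128588671-128588691, minus strand: gtgaggtttGACttaatttat
Cmtm4, chr8:104351318-104351338, minus strand: agaattgttGACtgatcctca
Tor1aip1, chr1:156005149-156005169, minus strand: gtggtccatAACaaatagaga
Stxbp6, chr12:44855292-44855312, minus strand: tctctctgtAACtaagcaaca
Fam8a1, chr13:46677297-46677317, plus strand: agttaactcGACaagttcttt

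The C2U fraction of these sites, the authors' mean over the 8 WT DART-seq libraries, ran from 35.6% in Fam8a1 to 43.7% in 9330159F19Rik. Kbtbd11 was at 41.7%, Rps15a, which encodes a protein of the small ribosomal subunit, at 38.5%, and Psat1, an enzyme of serine synthesis, at 38.1%. Cxcr4, the receptor of the chemokine CXCL12, was at 37.1%, Cmtm4 at 36.6%, Tor1aip1, a protein of the inner nuclear membrane, at 36.5%, and Stxbp6 at 35.8%. The deposited fractions carry neither a spread nor a read depth, so their order within this set cannot be set against an error. The positions ranged from 65 bases past the last coding base in Psat1 to 3800 bases past it in Cmtm4. The site in Rps15a lay 3630 bases past it, in a merged terminal exon of 4822 bases.

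The highest terminal sites of the genes that the study examined singly are given for comparison, with the same capitals. Camk2a is described without its sequence.
Bdnf, chr2:109724640-109724660, plus strand: tggaattaaAACaatgtcaag
Map2, chr1:66440352-66440372, plus strand: tcccccaaaGACctcttgatc
Ogdh, chr11:6355602-6355622, plus strand: aacacacctGACagagctgca
Shank1, chr7:44359850-44359870, plus strand: agggggaaaAACctgaaataa

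Bdnf, which encodes the neurotrophin BDNF, had 7 sites and all were terminal. One lay in the coding part, at 0.912%, and the other 6 were spread over the 3' UTR from 499 to 2325 bases past the last coding base, at 3.70% to 13.7%. Map2, the dendritic microtubule-associated protein, had 16 sites, of which only 2 were terminal, at 12.8% and 0.867%. Camk2a, the kinase subunit of the postsynaptic density, had 5 of its 6 sites in the terminal exon, at 0.370% to 5.23%. Shank1, a postsynaptic scaffold, had 2 of 7, at 1.53% and 2.72%, and Ogdh, a subunit of the oxoglutarate dehydrogenase complex, had 3 of 11, at 1.99% to 10.2%. Actb, Homer1, Leo1 and Mettl3 had sites, but none of them was terminal. The site of Homer1 that GENCODE places in a 3' UTR, at 6.17%, fell in an internal merged exon; merging the exons of all transcripts makes such an exon internal.

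The terminal positions lay mostly in 3' UTRs. Of the 7128, 5433 (76.2%) were in the 3' UTR of a GENCODE M21 transcript, 1629 (22.9%) in coding sequence, 44 in non-coding transcripts, 19 in 5' UTRs and 3 in no exon of that annotation. The last exon of the gene's reference transcript held 97.5% of them. Conversely, 811 of the 11019 other positions (7.36%) lay in the last exon of a reference transcript. 3325 of the 3341 genes were protein-coding.

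Sites were densest on both sides of the stop codon and thinned out along the 3' UTR. In 10669 genes with a stop codon in the terminal exon and a mean of at least 100 counts over the WT RNA-seq libraries, 2.29% of the RAC motifs in the last 100 coding bases were listed as sites, against 0.763% of those at least 400 bases upstream. Over the first 100 bases of the 3' UTR the share was 2.00%, from 201 to 400 bases 1.45%, from 801 to 1600 bases 1.09%, and past 3200 bases 0.560%. Over the whole coding part of the exon it was 1.51%, and over the whole 3' UTR 1.16%. The median C2U fraction was 3.23% at least 400 bases upstream of the stop codon and 3.10% to 3.17% from there to the last 100 coding bases. In the last 100 coding bases it was 3.43%. Along the 3' UTR, where the share fell, it was 3.76% over the first 100 bases, 3.45% from 101 to 200 bases, 3.94% from 401 to 800 bases and 4.71% past 3200 bases. A site could be listed only where reads covered it, and coverage along the exons is not in the deposited values, so its part in these profiles was not tested.

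**Figure D1:**
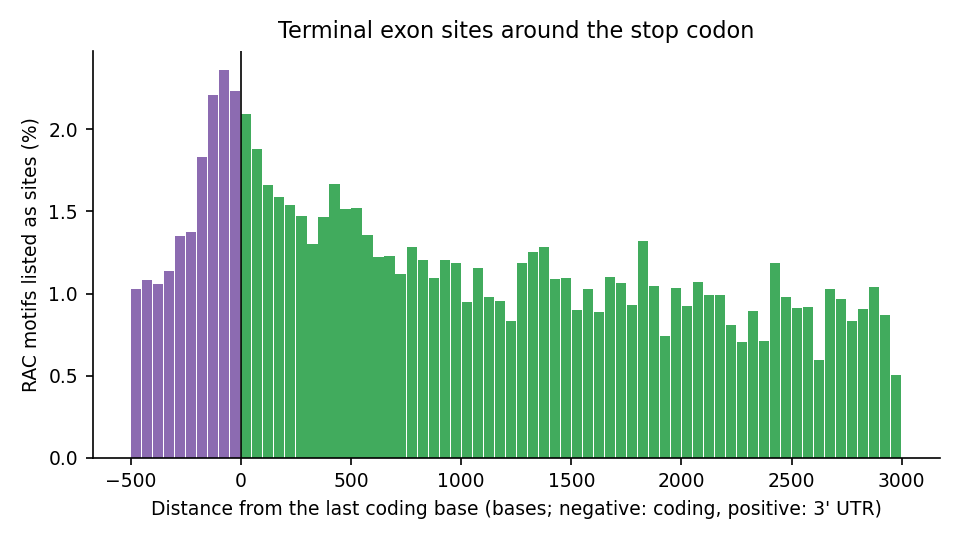
Share of RAC motifs listed as DART-seq sites (y axis, percent) in bins of 50 bases around the last coding base (x axis, bases), for the last exon of 10669 genes; purple bars are coding, green bars 3' UTR. The share peaks next to the stop codon, where it is 2.29% over the last 100 coding bases, and falls along the 3' UTR.

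C2U fractions in terminal exons spanned 0.271% to 43.7%, with a median of 3.82% and quartiles of 2.17% and 6.65%. Of the terminal positions 1604 (22.5%) were at 2% or less, 711 (9.97%) between 10% and 20%, and 109 (1.53%) above 20%. Sites of 3' UTRs had a median of 4.02% (n = 5433) and sites of the coding part one of 3.24% (n = 1629). The medians of other exons were 3.55% for internal exons under 400 bases (n = 6553), 3.41% for longer internal exons (n = 2706) and 2.53% for first exons (n = 1071). The share above 20% was 1.53% in terminal exons, 0.595% in short internal, 0.924% in long internal and 0.280% in first exons. Sites of 3' UTRs that fell in long internal exons had a median of 4.51% (n = 350). Within genes the median terminal site exceeded the median short internal site in 824 of 1536 genes with both (53.6%), and the median long internal site in 381 of 715 (53.3%). Against first exons it was higher in 276 of 432 genes (63.9%). These are descriptions of deposited means, and no test over positions was made.

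Listed sites and their C2U fractions differed by the bases around the edited C. Every deposited line had RAC, as the authors' filter required. DRACH held 76.7% of the terminal sites, whereas it held 80.2% of all RAC motifs in the terminal exons of the same genes. Accordingly 3.62% of the DRACH motifs and 4.46% of the other RAC motifs in these exons were listed, and the median fraction was 3.81% in DRACH and 3.86% outside it. By the base after the edited C, 5.16% of RAC motifs followed by G were listed, 4.54% of those followed by C, 3.62% of those followed by A and 3.04% of those followed by T. Sites followed by C had the lowest median fraction, 2.698%, and those followed by A the highest, 4.69%.

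The order of the contexts by share listed differed from that by fraction, although TGACG stood high in both, with 5.32% listed and a median of 5.65%. TAACA had the lowest share, 2.61%, and a median fraction of 6.34% (rank 3 of the 32 contexts). TAACG was first by fraction, at 6.91%, and TAACT second, at 6.57%, with 2.68% of its motifs listed. GGACT, a core of the METTL3 motif, had 2.94% listed and a median of 2.33%, and GGACC was lowest by fraction, at 1.80%. GGAC began 5.19% of the contexts in the most edited decile of terminal sites (10.6% to 43.7%) and 29.9% of those in the least edited decile (0.271% to 1.29%). A T before the R was found in 40.3% of the former and 15.8% of the latter, and a C after the edited base in 8.70% and 54.4%. The 3' UTR held 88.1% of the most edited decile and 67.7% of the least. The preference of the deaminase for its neighbouring bases and the methylation of each context cannot be told apart in these values. The part of read depth and of the calling rule in them was not tested.

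Terminal exons with sites were long, with a median of 1800 bases over genes and a range from 37 to 122802. In 1639 genes (49.1%) the exon held 1 site, in 796 it held 2, and in 287 genes (8.59%) it held 5 or more, which took 25.4% of all terminal sites. In 1332 genes (39.9%) every site was terminal. Exons of 501 to 1000 bases held 1.54 sites on average and those over 4000 bases held 2.998, so that sites per kb fell from a median of 1.64 to 0.409 between these classes. Since a gene entered the set with its first site, the density of short exons has a floor set by their length. Over the terminal exons of all genes with a WT mean count of at least 100, sites stood at 0.281 per kb, against 0.397 in short internal, 0.116 in long internal and 0.179 in first exons. The corresponding shares of RAC motifs listed were 1.11%, 1.36%, 0.463% and 0.764%.

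The most sites were in Nav1, a neuronal navigator protein that binds microtubule ends, with 15 at 1.74% to 16.4% over a terminal exon of 7200 bases (chr1:135434580-135441779). All 15 were in the 3' UTR, and the gene had 18 in all. Add2, the beta subunit of the spectrin-binding protein adducin, and Dnajc5, a synaptic vesicle chaperone, had 13 each. Rgs5, a regulator of G protein signalling known from pericytes, had all of its 12 sites in the terminal exon, with a highest fraction of 31.3%. Acp1, a low molecular weight phosphatase, and Rab6b, a GTPase of Golgi transport, also had 12. Igfbp5, Dclk1, Fbxo31 and Cx3cl1 had 11 each. The summed fraction over the exon was 111% in Rgs5, 93.9% in Nav1, 73.2% in Acp1 and 30.5% in Cx3cl1, so genes with like numbers of sites differed in how far these were edited.

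**Figure D2:**
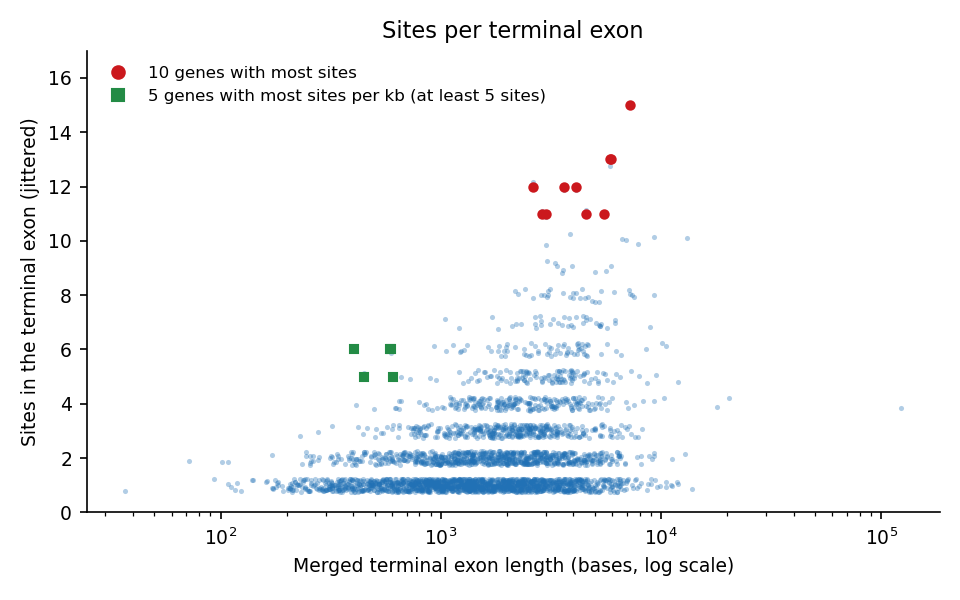
Number of sites in the terminal exon (y axis, jittered for genes shown as blue points) against the merged exon's length in bases (x axis, log scale) for 3341 genes. Nav1, with 15 sites in 7200 bases, is at the top, and the genes with the densest sites (squares, some overlapping) lie between 402 and 607 bases.

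Among genes with at least 5 terminal sites, the density was highest in Sec13, a subunit of the COPII coat and the nuclear pore, with 6 sites in 402 bases, or 14.9 per kb. P4htm had 5 in 447 bases, Ptprn 6 in 594 and Pgs1 5 in 607. Neighbouring sites of an exon lay a median of 286 bases apart (3787 pairs), with 160 pairs (4.22%) within 10 bases and 611 (16.1%) within 50. The tightest group, chosen after its values were seen, was in the 3' UTR of Acp1, where 8 sites lay between chr12:30895566 and chr12:30895654 at 0.495% to 6.54%. The 6 sites of Sec13 lay between chr6:113728298 and chr6:113728364, across the stop codon. Sites this close are read from the same molecules.

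The share of genes with a terminal site rose with RNA level. Of 11980 protein-coding genes with several exons and a WT mean count of at least 100, 3297 (27.5%) had one. By quintiles of the level, in library-scaled counts (CPM) per kb of exon, the share rose from 2.71% in the lowest quintile to 24.3% in the middle and 57.6% in the highest. The median fraction was 4.31% in the lowest quintile, 4.69% in the middle and 3.17% in the highest. The calling rule needs a minimum number of reads and of converted reads at the position, and the part of depth in both trends was not tested.

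Gene groups differed in how many members carried a terminal site, and the groups are named here with their members of highest summed fraction. The lists were chosen with earlier results of these data known. Their shares are read against the quintiles of RNA level above, in which 24.3%, 44.0% and 57.6% of coding genes had a terminal site from the middle to the highest. By their median levels the vesicle (41.3 CPM per kb), cytoskeleton (52.9), motor (26.7), activity-regulated (28.0), ribosomal and respiratory lists lie in the highest, the postsynaptic (9.85), receptor (9.30) and RNA granule (8.49) lists in the next, and the chromatin (6.78) and m6A (5.21) lists in the middle. The vesicle, cytoskeleton, motor, activity-regulated, RNA granule and m6A lists thus lay within 10 percentage points of the share at their level. In the postsynaptic scaffold and signalling list 20 of 31 tested genes (64.5%) had one, with 61 sites at a median of 2.58%. Dlgap1, a scaffold that binds PSD-95, had 6 sites summing to 38.8%, Dlg3 had 4 summing to 25.2%, and Shank2 had 2, at 12.03% and 10.8%. Glutamate and GABA receptors had terminal sites in 8 of 30 genes (26.7%), below the 44.0% at their level, with Gria2, an AMPA receptor subunit, at 5 sites summing to 31.8%. Synaptic vesicle and SNARE genes had them in 17 of 30 (56.7%), led by Sv2b, a vesicle glycoprotein, with 5 sites summing to 45.1%. Cplx2, a complexin that clamps vesicle fusion, had 7 sites, but none was above 2.41%.

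Cytoskeletal genes had terminal sites in 20 of 33 members (60.6%) and kinesin and dynein motor genes in 17 of 26 (65.4%). Dync1li2, a light intermediate chain of dynein, had 10 sites summing to 72.6%, Dclk1 11 summing to 51.8%, Kif5b, the kinesin-1 heavy chain, 5 summing to 42.9%, and Map1b 6 summing to 39.3%. Kif2a had 1 site, at 26.5%. Of RNA granule and translation regulators 13 of 33 (39.4%) had one, with the highest median fraction of the lists, 5.10%. There Celf2, an RNA-binding splicing regulator, had 8 sites summing to 68.6% and the neuronal RNA-binding protein gene Elavl3 had 10 summing to 37.2%. Among 15 genes of the m6A machinery 4 had a terminal site: the demethylases Fto (4 sites, 23.9% summed) and Alkbh5 (1 site, 9.84%), the nuclear reader Ythdc1 (4.33%) and Zc3h13, a subunit of the writer complex (4.02%).

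Chromatin and transcription regulators had terminal sites in 13 of 36 genes (36.1%), with Tcf4 at 3 sites and Neurod6 at 1, of 12.9%. Cytosolic ribosomal protein genes had them in 10 of 43 (23.3%) and respiratory chain genes in 5 of 34 (14.7%), although their median levels, 113 and 122 CPM per kb, were the highest of the lists. Rpl5 had 4 sites and each other ribosomal protein gene among those of highest summed fraction had 1. Activity-regulated genes had them in 18 of 29 (62.1%), with Bdnf (7 sites, 48.7% summed) and Fosl2, an AP-1 subunit (5 sites, 23.1%), at the top.

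Soma and neurites could be compared in the deposited editing scores. A score is the sum of the mean C2U fractions over the sites of an RNA, given once for WT soma and once for WT neurites, so it has no spread and no test was made. By the study's description the soma and neurite means pool untreated and KCl-treated cultures. For 1307 RNAs whose every site was terminal, the score was higher in neurites for 844 (64.6%), and the median log2 ratio was 0.40 over the 1229 that were above 0 in both. Left out of this ratio were 61 RNAs listed at 0 in neurites and 17 listed at 0 in soma. For 2283 RNAs with no terminal site the share was 64.3% and the ratio 0.40, so the difference between compartments was of the same size for RNAs edited elsewhere. Among these 106 were listed at 0 in neurites and 31 in soma, so both ratios leave out more RNAs at 0 in neurites than in soma. Of RNAs with a single site, 448 of 737 terminal ones (60.8%) were higher in neurites, 302 of 552 short internal (54.7%), 123 of 240 long internal (51.3%) and 99 of 150 first exon ones (66.0%). For RNAs with only terminal sites the share differed by the RNA-seq call in untreated WT described below. It was 77.9% of 154 called higher in neurites, 63.4% of 1098 called neither way and 45.1% of 51 called lower. The part of RNA level and read depth in the scores was not tested.

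Single genes differed widely. Dlgap1 had a score of 0.163 in soma and 0.633 in neurites, Celf1 one of 0.220 and 0.469, Rgs5 one of 0.490 and 1.02, and Bdnf one of 0.292 and 0.430. Igfbp5 was at 0.446 and 0.512. Others were lower in neurites, such as Acp1 at 0.715 in soma and 0.615 in neurites and Nav1 at 1.10 and 1.07. The scores of Acp1 and Nav1 include sites outside the terminal exon, which held 12 of 13 and 15 of 18 of their sites. In Mettl3 KO the median score of RNAs with only terminal sites was 0.0169, against 0.0710 in WT, but the calling rule chose positions higher in WT, so this is no independent measure. Of the same RNAs 149 were listed at 0 in Mettl3 KO.

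**Figure D3:**
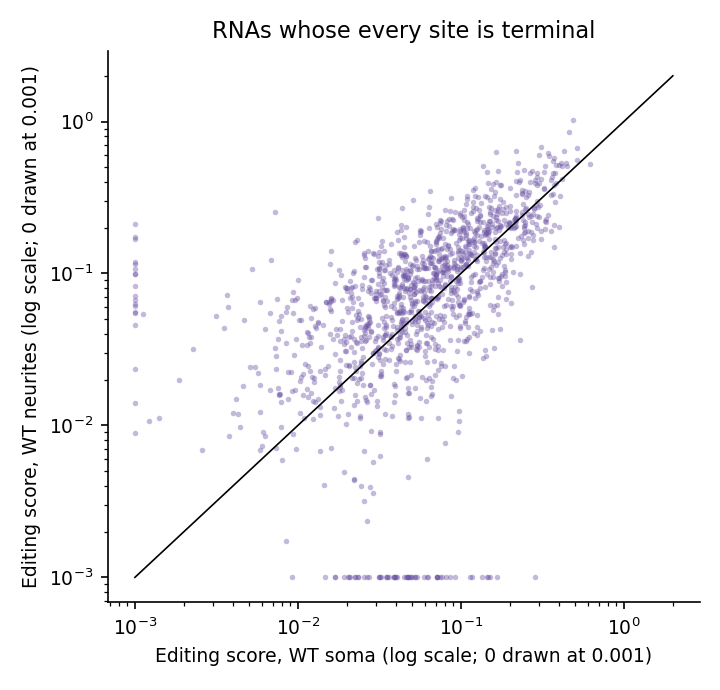
Editing score in WT neurites (y axis) against WT soma (x axis), both log scale with scores of 0 drawn at 0.001, for RNAs whose every site was terminal; each point is 1 RNA and the line marks equal scores. Of 1307 RNAs, 844 lie above the line.

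The RNA-seq counts were used to ask how the RNAs that carry terminal sites were distributed. Totals ran from 33789183 to 71394235 counts per library. Log2 ratios between the 2 replicates of a group had a standard deviation (SD) of 0.196 to 0.400 in the WT groups but of 0.550 to 1.46 in the Mettl3 KO groups. Mettl3 itself, counted over the whole gene, was at 17.3 and 16.7 CPM in untreated WT soma and 8.69 and 11.6 CPM in KO soma. The difference of -0.73 on the log2 scale (SE 0.29) did not pass (edgeR adjusted p = 0.344). The loxP sites of the floxed allele flank an internal exon, so counts over the whole gene include exons that are not deleted. The part of these exons in the remaining Mettl3 counts was not tested. Neuronal markers, Map2 among them, summed to 3814 to 5260 CPM in the WT libraries. In untreated neurites they summed to 4939 to 5260 CPM in WT and 3270 to 3662 CPM in Mettl3 KO. In untreated soma the sums were 3814 to 3928 CPM in WT and 3219 to 4044 CPM in Mettl3 KO. The part of this difference in the KO comparisons was not tested. Astrocyte markers summed to 956 to 1359 CPM in WT soma and 1802 to 2990 CPM in WT neurites, and all microglial, oligodendrocyte and vascular markers were detected in each group. In untreated Mettl3 KO cultures astrocyte markers summed to 1827 to 2115 CPM in soma, where untreated WT soma had 956 to 972 CPM, and to 2688 to 6797 CPM in neurites, so they moved with genotype too, and their part in the KO comparisons was not tested. The libraries of KCl-treated Mettl3 KO neurites lay far apart. Oligodendrocyte lineage markers summed to 66.7 to 7198 CPM there, astrocyte markers to 2515 to 18146 CPM and neuronal markers to 810 to 4128 CPM. The part of these libraries in the fits of all 16 libraries was not tested. In such bulk samples fewer cells of a type and less RNA per cell cannot be told apart.

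In untreated WT cells 419 of the 3325 tested genes with a terminal site were higher in neurites than in soma, and 133 were lower (edgeR quasi-likelihood test, at least 1.5-fold and adjusted p of at most 0.05). Over all 23200 genes tested 9.01% were called higher and 4.54% lower, against 12.6% and 4% of the genes with terminal sites. With the minimum mean count raised to 100, the shares called higher were 11.9% with a terminal site and 11.7% of all, so at this depth the share of genes with a terminal site lay near the background. The median log2 difference was -0.04 for genes with terminal sites and -0.10 for all genes tested. Leaving out WT soma replicate 1 or 2 or WT neurite replicate 2 left 47, 20 and 85 genes called lower, and 352, 289 and 323 called higher. With all 16 libraries in the fit, KO libraries included, no gene with a terminal site passed in either direction.

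The share called higher in neurites rose with the number of terminal sites. Of the 287 genes with 5 or more, 84 (29.3%) were higher in neurites and 5 (1.74%) lower, with a median log2 difference of 0.28. Of 1409 genes with 2 to 4 sites 199 (14.1%) were higher, and of 1629 genes with 1 site 136 (8.35%). Genes with many sites were also more abundant and had longer exons: their median level was 21.4 CPM per kb, against 3.35 for protein-coding genes without terminal sites, and their median terminal exon was 3371 bases against 1388. Within the highest quintile of levels 31.0% of 155 genes with 5 or more sites were higher in neurites, 15.4% of 642 with 2 to 4, 10.6% of 583 with 1 and 16.7% of 1015 with none. Within the next lower quintile the shares were 28.6%, 13.2%, 6.50% and 5.82%. Among terminal exons over 4000 bases they were 40.0% of 90 genes, 13.7% of 183, 10.9% of 156 and 6.37% of 1004. Between 2000 and 4000 bases they were 27.3%, 15.0%, 7.30% and 5.98%, but between 1000 and 2000 bases 14.6% of 41 genes with 5 or more sites were higher, near the 12.9% with 2 to 4, against 5.77% with 1 and 7.13% with none. Genes with 5 or more sites elsewhere but none in the terminal exon were higher in 21 of 210 cases (10%). Their median terminal exon was only 712 bases and their median level 15.5 CPM per kb, so they are not matched to the genes with 5 or more terminal sites. The difference between these classes was not tested. Site calls drew on DART-seq libraries of both compartments, and the part of read depth in neurites was not tested. With the libraries left out one at a time, 63 to 89 of the 287 genes were called higher.

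**Figure D4:**
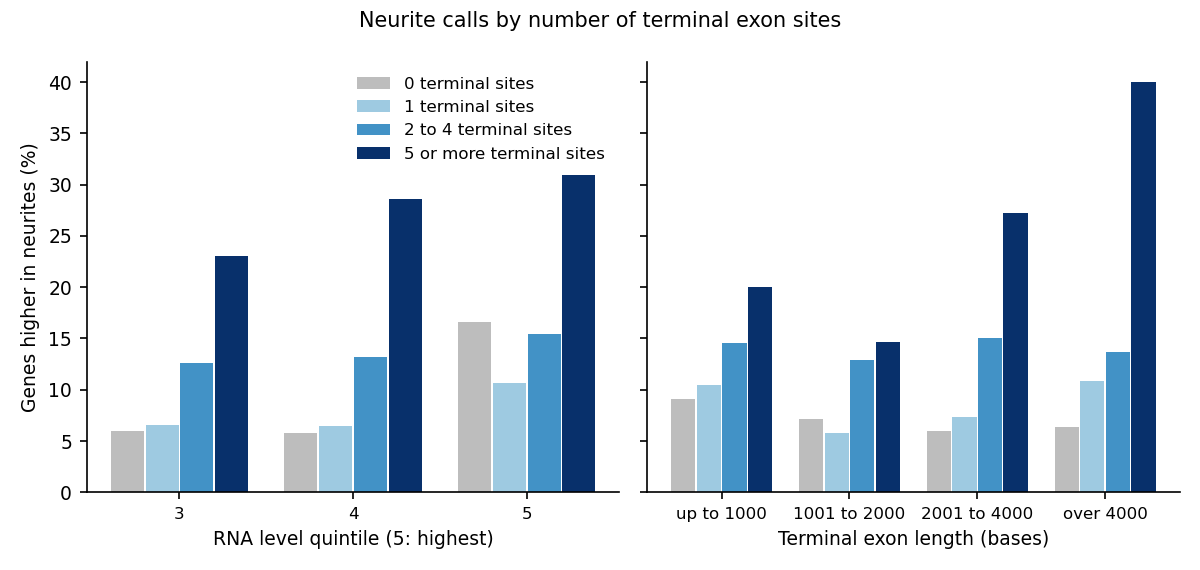
Share of protein-coding genes with a mean WT count of at least 100 that were called higher in neurites than in soma (y axis, percent) by the number of terminal sites (bar colour), within the 3 highest quintiles of RNA level (left) and within classes of terminal exon length in bases (right). In the highest quintile 31.0% of genes with 5 or more sites were called, against 15.4% with 2 to 4; the bar for exons up to 1000 bases with 5 or more sites rests on 10 genes.

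The largest rises in neurites among these genes were in Ppp1r16b, Rgs5 and Ftl1. Ppp1r16b, a regulatory subunit of protein phosphatase 1 with 4 terminal sites, was at 122 and 89.5 CPM in soma and 487 and 622 CPM in neurites (log2 difference 2.33, SE 0.19, edgeR adjusted p = 0.000114). Rgs5 was at 19.9 and 18.8 CPM in soma and 110 and 90.1 CPM in neurites (2.31, SE 0.14), and Ftl1, the ferritin light chain, at 1043 and 917 CPM and 4119 and 5642 CPM (2.25, SE 0.18). Groups did not overlap for any of them, but their choice as the largest called rises nearly fixed this, so it adds no support. Markers of fibroblasts and vessels summed to 11.4 to 15.8 CPM in untreated WT soma and 30.0 to 78.5 CPM in untreated WT neurites, with 4 of 7 tested markers called higher, and 5 of 7 astrocyte markers were called higher too. Their part in these rises was not tested.

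The largest falls were in Snhg11, a small nucleolar RNA host gene, Ing4 and Blnk. Snhg11, with 4 terminal sites, was at 787 and 788 CPM in soma and 365 and 301 CPM in neurites (log2 difference -1.31, SE 0.15, edgeR adjusted p = 0.000499). Ing4, a subunit of a histone acetyltransferase complex, fell by 1.20 on the log2 scale and Blnk, an adaptor of B cell receptor signalling, by 1.19. Both had 1 terminal site. Ing4 lost its call without soma replicate 1 or 2, and Blnk without soma replicate 2.

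Among the genes examined by the study, Camk2a, Shank1 and Map2 were higher in neurites and Bdnf and Ogdh were not called. Map2 was at 464 and 478 CPM in soma and 1436 and 1830 CPM in neurites (log2 difference 1.73, SE 0.14, edgeR adjusted p = 0.000117). Camk2a rose from 1499 and 1719 CPM to 6370 and 7644 CPM (2.06, SE 0.14), and Shank1 from 50.99 and 42.1 CPM to 192 and 210 CPM (2.04, SE 0.22). Bdnf was at 13.5 and 13.5 CPM in soma and 11.8 and 12.2 CPM in neurites (-0.24, SE 0.15, edgeR adjusted p = 0.268). Ogdh was at 201 and 219 CPM and 264 and 276 CPM (0.30, SE 0.11, edgeR adjusted p = 0.0779).

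By list, 11 of the 20 postsynaptic scaffold genes with a terminal site were higher in neurites and none was lower, with a median log2 difference of 0.62, against 9.01% and 4.54% over all genes. They were Camk2a, Ddn, Dlg2, Dlg4, Dlgap3, Homer3, Nrgn, Shank1, Shank2, Shank3 and Sipa1l1, with Dlg2 at 1.21 (SE 0.15) and Shank2 at 0.86 (SE 0.17). Of ribosomal protein genes with a terminal site 6 of 10 were higher, among them Rplp1 (1.68, SE 0.16), Rpl4 (0.87, SE 0.13) and Rpl23 (0.73, SE 0.15). Of motor genes 5 of 17 were higher, among them Kif5b (1.72, SE 0.21) and the kinesin adaptor gene Trak2 (1.28, SE 0.18), and of cytoskeletal genes 5 of 20, among them Map1b (0.89, SE 0.12). Chromatin and transcription regulators gave 4 of 13, among them Neurod6 (0.79, SE 0.15) and Mef2d (0.64, SE 0.12). Vesicle genes gave 3 of 17 higher, with Cplx2 at 1.58 (SE 0.17), and 1 lower, Sv2b, which fell by 0.70 on the log2 scale (SE 0.13). Of respiratory chain genes 1 of 5 was higher, Cox7c (0.90, SE 0.13), of RNA granule genes 1 of 13, Pum2, and of activity-regulated genes 2 of 18, Egr2 and Egr3. None of the 4 genes of the m6A machinery was called, and of 8 receptor genes 1 was lower, Grin1. Pum2, Egr2, Egr3 and Grin1 are named here after their values were seen. Neurod6, Mef2d, Rpl23, Shank2 and Sv2b each lost their call when 1 of the libraries was left out.

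**Figure D5:**
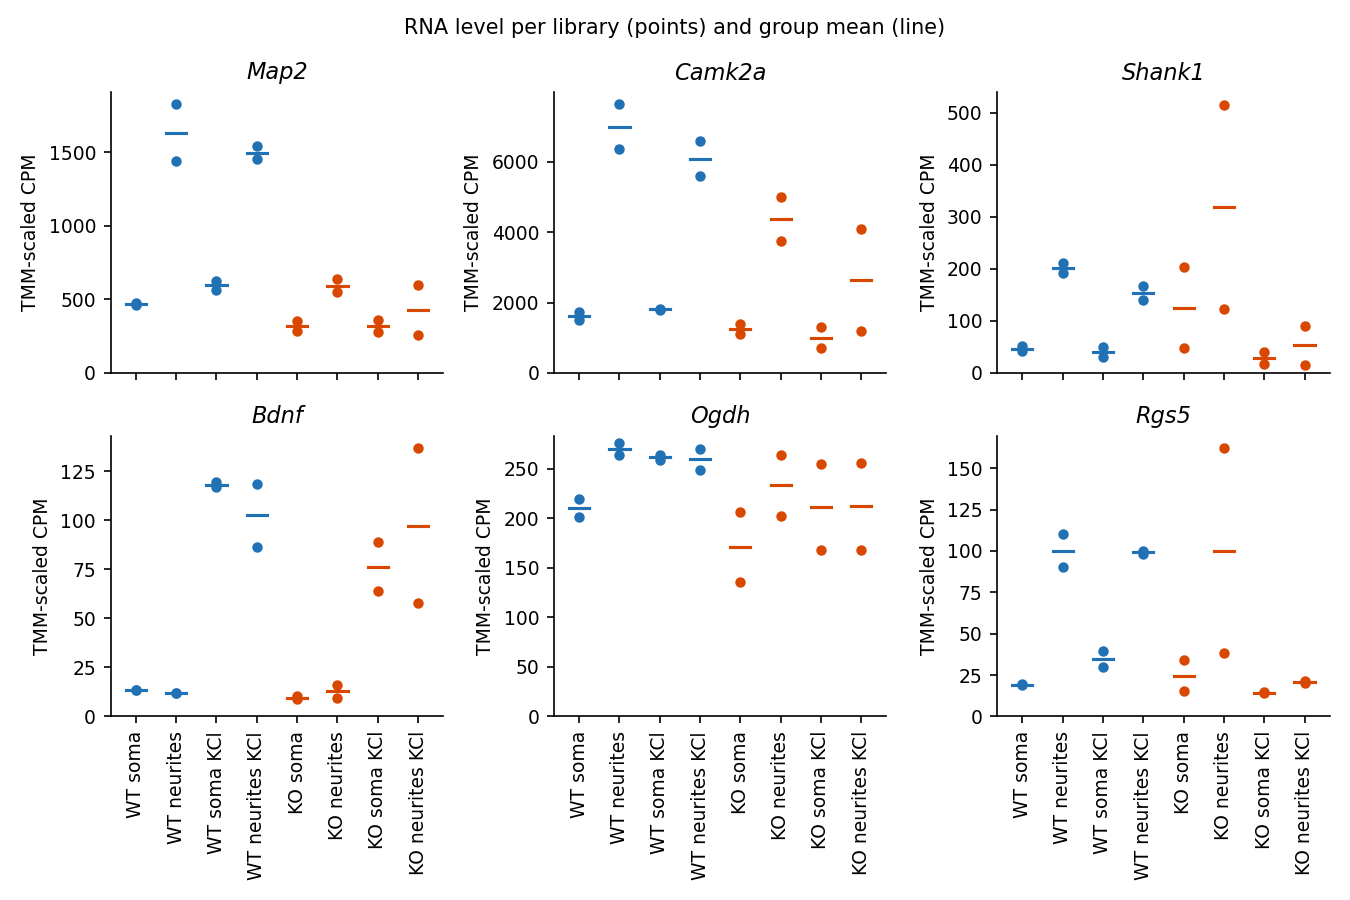
RNA level in TMM-scaled CPM (y axis, from 0, own scale for each gene) in each of the 2 libraries of a group (points) with the group mean (line), for WT (blue) and Mettl3 KO (orange) soma and neurites, untreated or after KCl. Map2, Camk2a, Shank1 and Rgs5 were higher in untreated WT neurites than in soma, Bdnf was higher after KCl, and the 2 KO libraries of a group often lie far apart.

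After depolarisation with KCl the share of genes with terminal sites called higher lay near that of all genes tested. In WT soma 145 of 3325 rose at least 2-fold and 28 fell (4.36% and 0.842%), where 3.74% and 2.96% of all 24060 genes tested were called (edgeR adjusted p of at most 0.05). The number called lower was 9 without untreated replicate 1, 17 without KCl replicate 1 and 140 without KCl replicate 2. The share that rose was alike for genes with 1 terminal site (71 of 1628, 4.36%), 2 to 4 (61 of 1410, 4.33%) and 5 or more (13 of 287, 4.53%). None of the 287 genes with 5 or more fell.

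The largest rises were in genes of transcription factors of the early response to activity. Fosb, an AP-1 subunit with 4 terminal sites, was at 1.19 and 1.70 CPM in untreated soma and 329 and 499 CPM after KCl (log2 difference 8.17, SE 0.27, edgeR adjusted p = 2.62e-08). Npas4, with 2 sites, went from 5.20 and 4.86 CPM to 849 and 1613 CPM (7.94, SE 0.33), and Nr4a2, a nuclear receptor with 1 site, from 5.31 and 5.37 CPM to 714 and 892 CPM (7.24, SE 0.21). All 18 activity-regulated genes with a terminal site rose, with a median of 4.47, but genes entered that list because they are known to respond. Bdnf rose from 13.5 and 13.5 CPM to 117 and 119 CPM (3.13, SE 0.15). From the other lists Arc, Syt4, Nefl and Ythdc1, named after their values were seen, also rose. The largest falls were in Txnip, an inhibitor of thioredoxin (-2.39, SE 0.27), Ing4 (-2.02, SE 0.26) and the clock-output factor Dbp (-1.91, SE 0.30), each with 1 terminal site. Dbp was at 20.96 and 14.1 CPM before and 2.94 and 6.25 CPM after KCl.

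Loss of Mettl3 was compared in untreated soma. Of 3326 genes with terminal sites none was called higher in KO and 3 were lower, among them Pxdn and Rtn4rl1, where 0.0253% and 0.0884% of all 23750 genes tested were called. At an unadjusted p of at most 0.05 with the same fold, 202 genes with terminal sites were higher and 211 lower, where 6.75% of all genes were higher and 5.91% lower. DESeq2 called 46 of the genes with terminal sites higher and 72 lower. Without KO soma replicate 1 edgeR called 496 higher and 610 lower, and without KO soma replicate 2 11 and 55. Each of these fits has 1 KO soma library, which is assumed to vary like the other groups. The few calls with both libraries do not show that the genes kept their level. The median log2 difference was 0.00 for genes with terminal sites, 0.02 for all genes tested and -0.11 for the 287 genes with 5 or more sites.

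Pxdn, a peroxidase of the extracellular matrix, was at 52.4 and 58.6 CPM in WT soma and 12.9 and 10.8 CPM in KO soma (log2 difference -2.20, SE 0.25, edgeR adjusted p = 0.0398). Rtn4rl1, a receptor of the Nogo receptor family, went from 41.9 and 40.0 CPM to 9.18 and 9.98 CPM (-2.07, SE 0.20, edgeR adjusted p = 0.02496). The calls of Pxdn and Rtn4rl1 were lost without WT soma replicate 1 or 2 and with the replicate block, which left 1 gene called lower. Whether strain or genotype sets these levels cannot be told apart.

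The change of neurite enrichment upon loss of Mettl3 passed for none of the 3325 genes with terminal sites and for 0 of all 22942 tested, in edgeR as in DESeq2. A count of 0 here does not show that neurite enrichment was kept. At an unadjusted p of at most 0.05 and 1.5-fold, 16 genes with terminal sites had a higher and 8 a lower enrichment in KO, with 0.806% and 0.706% of all genes. The median log2 change was -0.07 for genes with terminal sites, -0.09 for those with 5 or more and -0.03 for all genes. Map2 was at 351 and 285 CPM in KO soma and 549 and 637 CPM in KO neurites, and its enrichment differed from WT by -0.93 on the log2 scale (SE 0.37, edgeR adjusted p = 0.998). Camk2a differed by -0.36 (SE 0.30), Ogdh by 0.06 (SE 0.29) and Bdnf by 0.49 (SE 0.33). Shank1 differed by -0.80 (SE 1.40), with KO soma at 46.9 and 204 CPM and KO neurites at 515 and 122 CPM. Same-numbered libraries thus gave opposite orders of the compartments, but the labels do not tie these numbers to inserts. With the numbers crossed, neurites were higher in both pairs. Without KO soma replicate 1 398 of the genes with terminal sites were called higher and 614 lower, and without KO neurite replicate 1 353 and 690, whereas without KO soma replicate 2 or KO neurite replicate 2 the counts were 80 and 20, and 89 and 13. In these fits KO enrichment rests on 1 complete pair of libraries, which is assumed to vary like the WT pairs.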

How the data were processed

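RNA-seq and in vitro DART-seq libraries of soma and neurites from WT and Mettl3 KO hippocampal neurons were analysed from the deposited tables (mm10). Per the labels reads were aligned with STAR 2.7.7a and counted with featureCounts 2.0.1. The deposited counts are raw reads per Ensembl gene, counted by the authors with multi-mapping reads included and without strand, so overlapping genes and near-identical copies share reads. The deposited value of a site is the C2U fraction, averaged by the authors over the WT DART-seq libraries. Methods state that Bullseye called sites in a RAC motif by depth, converted reads and excess over Mettl3 KO. The deposited editing score of an RNA is the sum over its sites, given by the authors as a mean. Replicate spread and depth of sites are unknown, so site values are described without tests. The authors' fold changes and p-values were not used.

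Site lines were placed on the merged exons of the count table. Where exons of several genes overlapped (103 terminal lines), the gene named on the line was taken. 88 terminal lines carried a symbol that is no known name of the gene. UTR and coding annotation came from GENCODE M21 and sequence from GRCm38.p6. Host genes of terminal sites were tested with edgeR 4.0.16 (quasi-likelihood, TMM, Benjamini-Hochberg over all genes) when their counts averaged 10 or more in the compared groups, with mitochondrial genes left out. Neurites against soma and KCl were fitted on the 8 WT libraries and the Mettl3 KO contrasts on the 8 untreated libraries. The contrast of neurite enrichment had 1 term per genotype and replicate number, taken as 1 culture insert. Fits were tested on simulated data. A 4-fold difference set there was recovered in 83.3% of the changed genes for neurites against soma and for KCl. The share was 23.6% for Mettl3 KO against WT soma and 0.0% for the contrast of neurite enrichment. Alternatives were DESeq2 1.42.0, RLE scaling, other count filters, other sets of libraries, leaving out each replicate and a replicate block. Levels are TMM-scaled CPM over all 16 libraries.

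The members and lists were chosen with earlier results of these data known. Named were the 10 terminal sites of highest fraction, the 10 genes with most sites, the 5 densest genes with at least 5 sites, up to 4 genes per list by summed fraction, up to 3 rises and 3 falls per comparison among called genes averaging 100 counts or more and with the same direction in both numbered pairs, and the genes examined by the study. By the methods soma and neurites of an insert, and treated and untreated cultures of a litter, belong together, but the labels do not tie replicate numbers to inserts or litters. Replicate differences of same-numbered soma and neurite libraries correlated at -0.135 in untreated WT, 0.0333 in WT after KCl, 0.0756 in untreated KO and 0.897 in KO after KCl, so the numbers were used as pairs only for the contrast of neurite enrichment, as in the study, and as an alternative elsewhere. 15 genes with terminal sites had a mean count below 10 over the 16 libraries. Some genes that meet these rules are not reported here.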

Additional observations from a re-analysis of the deposited data

Results flagged for a closer look

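Bdnf was lower in neurites than in soma in both WT pairs of same-numbered untreated libraries and higher in both such Mettl3 KO pairs. The labels do not tie these numbers to inserts. KO soma was at 10.3 and 8.99 CPM and KO neurites at 15.8 and 9.61 CPM. With the KO numbers crossed, the pairs had opposite orders. The log2 ratios of CPM + 1 were -0.18 and -0.14 in WT and 0.58 and 0.087 in Mettl3 KO, a difference of 0.49 between the genotypes. In the edgeR fit over all genes the difference was 0.49 (SE 0.33) with an adjusted p of 0.998. The KO soma libraries, whose log2 ratios had an SD of 1.09, stand apart from each other more than any WT pair.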

How the results depend on the processing

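The share of positions in terminal exons was 39.3% and became 48.5% among positions with a C2U fraction of at least 10%, 38.3% with genes of 3 or more merged exons, 40.0% with protein-coding genes only, 40.7% with every gene counted once and 42.8% with the last exon of the reference transcript, an alternative chosen after seeing the data. The median C2U fraction became 13.1% among positions of at least 10%, as that limit fixes, and 4.06% over genes. The share in DRACH was 78.3% and that in 3' UTRs 87.0% among positions of at least 10%, and the share in 3' UTRs was 77.4% with 3 or more merged exons and 73.4% over genes. Counting repeated lines or dropping positions in several genes moved none of these by more than its interval.

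In neurites against soma, the genes with terminal sites called lower were 88 with only the 4 libraries compared, and all 16 libraries gave 0 in either direction and 0 for genes with 5 or more sites. For KCl all 16 libraries gave 88 higher and 0 lower. For Mettl3 KO soma the counts higher and lower were 46 and 72 with DESeq2, 151 and 87 without a count filter, 1 and 5 with all 16 libraries, 0 lower with only the 4 libraries and 1 lower with the replicate block. Leaving out each replicate, after which the lone library of a group is assumed to vary like the other groups, gave 289 to 447 higher and 20 to 191 lower in neurites, 63 to 89 higher with 5 or more sites, 144 to 152 higher and 9 to 140 lower after KCl, 0 to 496 higher and 1 to 610 lower in KO soma, and 0 to 398 and 0 to 690 for neurite enrichment. The cause was not tested. The replicate block otherwise left 413 and 133 in neurites and 141 and 28 after KCl, crossing the soma and neurite numbers, chosen after seeing the data, gave 421 higher and 143 lower, and the contrast of enrichment gave 0 and 0 without its block. Of the named genes, the enrichment change reversed in 2 when a KO replicate was left out, with ranges of -2.846 to 1.246 for Shank1 (1.19 without soma replicate 2, 1.246 without neurite replicate 2) and -0.155 to 0.277 for Ogdh (-0.155 and -0.0991 without the same libraries). With all 16 libraries 23 of the 25 genes named for neurites and 3 of 7 for KCl lost their call. Depth is not given for sites, so precision of single C2U fractions is unknown.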
